A study of Mus musculus with 6 samples.

Results

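The 40 genes described here drive or mark cell division, and they were followed through 6 spontaneous tumors of mice that carry the NT3 transgene. They were chosen by name, as the entries of the gene count table whose symbol is on a list of cell cycle and mitosis genes. No threshold on their levels was used, but earlier results of these data were known when the list was chosen. All 40 symbols were found among the 23358 entries. Of the 40, 12 license replication origins or supply the replication fork, 23 act in mitosis, 3 are transcription factors of the cycle and 2 are cyclins of the G1/S transition. 

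NT3 is NF-κB-inducing kinase (NIK) without the domain that binds TRAF3, knocked into Rosa26 behind a STOP cassette flanked by loxP sites. The first 3 tumors came from Osx-Cre;NT3 mice (numbers 13, 18 and 25), whose Cre is driven by Osterix, an osteoblast-lineage gene, is held off by doxycycline chow until weaning, and whose stock was mixed C57Bl/6J and CD1. The other 3 came from FSP1-Cre;NT3 mice (numbers 27, 29 and 36), whose Cre is driven by S100a4, a gene of fibroblasts, on FVB/n, and NT3 itself was on C57Bl/6J. All mice were female and each tumor came from 1 mouse. The Osx-Cre;NT3 tumors lay on the trunk and were palpable at 150, 168 and 115 days, and the FSP1-Cre;NT3 tumors were perineal at 101 days, on the trunk at 72 days and perineal at 52 days, in the order of their numbers. Line and latency therefore did not overlap, both perineal tumors came from 1 line, and strain background went with the line, so these cannot be told apart. Both drivers are also known to act in some cells outside the mesenchyme, and every tumor came from an NT3 mouse, so that no comparison here isolates the transgene.

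Cells enter the cycle when cyclin D kinases and then cyclin E kinases inactivate the RB family, which frees E2F factors to switch on genes for DNA replication. Later, a complex of MYBL2 and FOXM1 with the MuvB core switches on the genes for mitosis, many of which share a promoter element called the CHR (cell cycle homology region) near a CCAAT box. Because most of these transcripts are scarce in resting cells, their levels in a tumor are widely read as a measure of how many cells are dividing. In bulk tissue, fewer dividing cells and less RNA per cell cannot be told apart.

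Of the 40 members, 32 had a promoter window in the RefSeq table for GRCm38.p6, with 33 windows in all because Mcm7 had a pair. Each window held 300 bases, 250 before the start site and 50 after it. Foxm1, Aurkb, Ccne2, Mcm4, Tpx2, Ccna2, Kif20a and Cdc25c had none. The 200 bases from 170 before the start to 30 after it are shown for 3 mitosis members (Cdk1, Ccnb2, Mki67) and 3 replication members (Mcm5, Rrm2, Pcna), as genes that the comparisons turn on or that show these elements clearly. Capitals mark CCAAT, the CHR letters TTTGAA or their variant TTCGAA, and 4 spellings of an E2F site, on either strand. The first of these is TTCCCGC, the second spelling is TTGGCGC, another is TTCGCGC, and the last one searched is TTGCCGC.
Cdk1, chr10:69352883-69353082, minus strand: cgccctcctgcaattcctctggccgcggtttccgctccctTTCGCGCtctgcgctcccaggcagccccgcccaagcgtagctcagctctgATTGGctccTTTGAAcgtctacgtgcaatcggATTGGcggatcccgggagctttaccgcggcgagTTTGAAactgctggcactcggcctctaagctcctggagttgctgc
Ccnb2, chr9:70421525-70421724, minus strand: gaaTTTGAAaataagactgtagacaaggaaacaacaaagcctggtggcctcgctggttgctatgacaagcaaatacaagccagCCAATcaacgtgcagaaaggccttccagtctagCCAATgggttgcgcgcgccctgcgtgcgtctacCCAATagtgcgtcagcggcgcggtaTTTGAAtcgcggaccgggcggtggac
Mki67, chr7:135716350-135716549, minus strand: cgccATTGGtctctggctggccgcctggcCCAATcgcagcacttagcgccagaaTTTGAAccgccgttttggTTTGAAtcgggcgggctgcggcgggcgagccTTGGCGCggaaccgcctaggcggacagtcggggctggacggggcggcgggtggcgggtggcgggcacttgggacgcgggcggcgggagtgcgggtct
Mcm5, chr8:75109339-75109538, plus strand: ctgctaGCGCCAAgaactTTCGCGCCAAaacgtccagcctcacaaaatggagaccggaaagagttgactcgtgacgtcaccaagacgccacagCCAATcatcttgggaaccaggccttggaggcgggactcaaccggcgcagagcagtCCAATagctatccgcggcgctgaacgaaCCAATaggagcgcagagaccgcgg
Rrm2, chr12:24708084-24708283, plus strand: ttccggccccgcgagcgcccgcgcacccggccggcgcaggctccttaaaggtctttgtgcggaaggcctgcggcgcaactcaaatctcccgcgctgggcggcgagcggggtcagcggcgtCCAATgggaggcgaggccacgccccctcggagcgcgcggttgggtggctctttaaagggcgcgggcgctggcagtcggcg
Pcna, chr2:132253151-132253350, minus strand: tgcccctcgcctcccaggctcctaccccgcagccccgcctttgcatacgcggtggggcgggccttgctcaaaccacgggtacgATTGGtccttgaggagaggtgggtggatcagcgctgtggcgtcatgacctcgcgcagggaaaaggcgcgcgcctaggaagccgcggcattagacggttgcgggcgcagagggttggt

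The windows of the 2 main classes differed in what they held. CHR letters stood in 13 of 18 windows of mitosis members and in 2 of 12 of replication members. E2F letters showed the opposite split, with 9 of 12 windows of replication members and 3 of 18 of mitosis members. In the printed stretches, Cdk1 carried TTTGAA at positions -71 and -15 and Ccnb2 at -167 and 5, counted from the start site as position 1. Mcm5 carried TTCGCGC at -152, overlapping a TTGGCGC on the other strand at -149. Rrm2 held 1 CCAAT and no other element in the printed stretch, its TTGCCGC lying at position -235. A CCAAT stood in 24 of 33 member windows (72.7%), against 37.4% of the 32851 windows of all genes in the table. Any CHR form was found in 45.5% of member windows against 19.2% of all, and any E2F form in 36.4% against 9.57%. All 15 member windows with a CHR also held a CCAAT (45.5%), a pairing seen in 7.52% of all windows. Over the 21262 windows of protein-coding genes alone, the shares were 38.2% for CCAAT, 17.6% for CHR, 12.1% for E2F and 7.11% for the pairing. Both Mcm7 windows are counted among those with a CCAAT and those with an E2F form. The 3 windows of E2f1, Mybl2 and Ccne1 held none of these letters. These are matches of letters and not measured binding.

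All 40 members were expressed in every tumor. The lowest count of any member in any tumor was 248, and 39 of 40 exceeded 1 RPKM (a read count scaled by gene length and library total) in every tumor. The exception was Cdc6, which loads the MCM helicase on origins and had the lowest mean of the members, 1.22 ± 0.315 RPKM (SD, n = 6). The median of the members' mean levels was 8.31 RPKM, and 30 of 40 lay above 5.27 RPKM, the median of all 16415 genes tested. The highest was Pcna, the sliding clamp of DNA polymerase, at 93.9 ± 27.3 RPKM (SD, n = 6). Mcm7 and Mcm6, subunits of the replicative helicase, followed at 31.1 and 26.03 RPKM, and Rrm1, the large subunit of ribonucleotide reductase, had 25.2 RPKM. Among the mitosis members Mad2l1, a spindle checkpoint protein, was highest at 22.4 ± 7.40 RPKM (SD, n = 6), ahead of Top2a, the topoisomerase that untangles sister chromatids, at 19.4 ± 5.15 RPKM (SD, n = 6). Mki67, the standard proliferation marker, had 11.95 ± 3.21 RPKM (SD, n = 6). The regulators were lower, with E2f1 at 3.70, Mybl2 at 4.42 and Foxm1 at 2.99 RPKM. 

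Levels between tumors are given below as TMM-scaled CPM (a gene's counts relative to the tumor's scaled total), in the order 13, 18 and 25 for Osx-Cre;NT3 and 27, 29 and 36 for FSP1-Cre;NT3. The gene counts of a tumor summed to between 51824408 (tumor 13) and 163297772 (tumor 18, the deepest). Every count is even, so these numbers may exceed the number of fragments sequenced. With all counts halved, edgeR (the main test below) called 0 genes in each of the 3 comparisons, as with the counts as deposited. With 0 called before halving, this check could hardly come out otherwise. DESeq2, an alternative below, was not run on halved counts. The samples of a line are separate mice. Fibroblast markers (Col1a1, Col1a2, Col3a1, Dcn, Lum and Pdgfra) summed to between 5194 and 6742 CPM in Osx-Cre;NT3 and between 11545 and 15001 CPM in FSP1-Cre;NT3, with 6 of 6 higher in all 3 FSP1-Cre;NT3 tumors and none at 0. Basal keratinocyte markers (Krt5, Krt14 and 4 others) summed to between 5687 and 14247 CPM over the 6 tumors. Endothelial markers ranged from 79.0 to 202 CPM against 207 to 316 CPM as a sum, with only 1 of 3 higher in all 3 FSP1-Cre;NT3 tumors. RNA integrity was also unequal, the average RIN score given with the samples being 8.5 in the FSP1 line and 7.7 in the Osx line. The part of these differences in the results was not tested.

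The summed level of the members varied 1.53-fold between tumors. It was 1691, 2254 and 1985 CPM in the Osx-Cre;NT3 tumors and 1475, 1502 and 1978 CPM in the FSP1-Cre;NT3 tumors. Tumor 18 was highest, tumors 27 and 29 were lowest, and the lines overlapped because tumor 36 lay above tumor 13. Simple epithelium markers (Krt8, Krt18, Krt19, Epcam and Cldn3) were also lowest in tumors 27 and 29, summing to 945, 1174 and 1024 CPM in Osx-Cre;NT3 and 566, 581 and 4660.0 CPM in FSP1-Cre;NT3 tumors, while endothelial markers, at 157, 79.0 and 202 CPM against 316, 207 and 243 CPM, were lowest in tumor 18 and highest in tumor 27. Of the marker lists, these had the highest and the lowest Spearman correlation with the summed level (0.83 and -0.71). They are set beside it after the values had been seen. Fibroblast markers had -0.66 and erythroid markers -0.60. The part of such cells in the summed level was not tested. The line means of the summed level were 1977 ± 281 CPM (SD, n = 3) and 1652 ± 283 CPM (SD, n = 3). The 12 replication members alone did not overlap, with 839.7, 1010.1 and 830.0 CPM against 676, 655 and 737 CPM, and means of 893 ± 101 CPM (SD, n = 3) and 689 ± 42.4 CPM (SD, n = 3). The same held when counts were scaled by library size alone, where the lowest Osx-Cre;NT3 tumor had 783 CPM and the highest FSP1-Cre;NT3 tumor 740.2 CPM. As single genes, 7.97% of all 16415 tested were lower in all 3 FSP1-Cre;NT3 tumors and 9.03% higher. With library sizes alone these shares were 4.4% and 10.9%. Sums of 12 other genes were not compared. The 23 mitosis members did overlap, with 802, 1181 and 1078 CPM against 745, 792 and 1174 CPM. In tumor 36, which had the shortest latency, the mitosis members summed to nearly the level of tumor 18, while its replication members stayed below all 3 Osx-Cre;NT3 tumors.

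**Figure D1:**
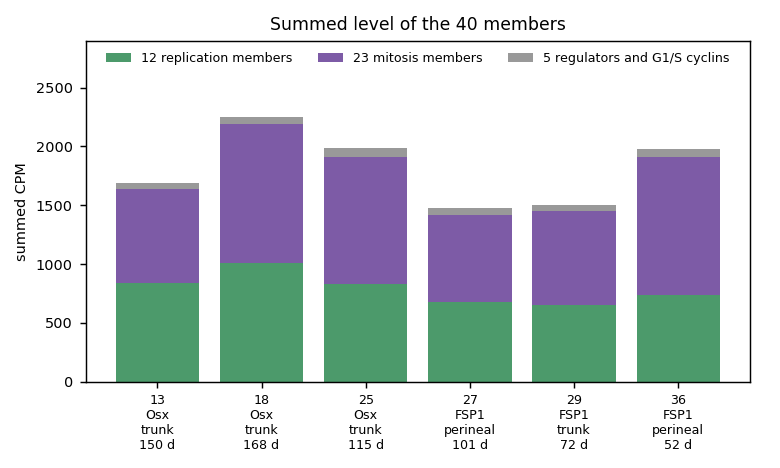
Summed TMM-scaled CPM of the 40 members in each tumor, stacked by class, with the Cre line, site and latency under each bar. Tumor 18 had the highest sum (2254 CPM) and tumor 27 the lowest (1475 CPM), and the replication members ranged from 655 to 1010 CPM.

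As single genes the members varied less between tumors than most genes. The SD of log2 CPM over the 6 tumors had a median of 0.35 for the members and 0.47 for all genes tested, and 36 of 40 members lay below that second value. Most members were also expressed above the median gene, as given above, and no set of genes matched for level was compared. Rrm1 was the steadiest, at 134, 137 and 133 CPM against 114, 119 and 118 CPM. Its 3 FSP1-Cre;NT3 values all lay below the 3 Osx-Cre;NT3 values, in a total spread of 1.20-fold. Nusap1, which bundles spindle microtubules, varied most, at 27.5, 54.9 and 29.1 CPM against 19.2, 23.2 and 36.7 CPM. Its highest tumor (18) stood 2.85-fold above its lowest (27), and the lines overlapped. Tumor 18 was the highest tumor for 21 members, tumor 36 for 11, tumor 25 for 7 and tumor 13 for 1. Tumor 27 was the lowest for 19 members, tumor 13 for 11, tumor 29 for 7, tumor 36 for 2 and tumor 18 for 1. The same counts were not made over all genes, so they cannot be read as particular to the members.

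**Figure D2:**
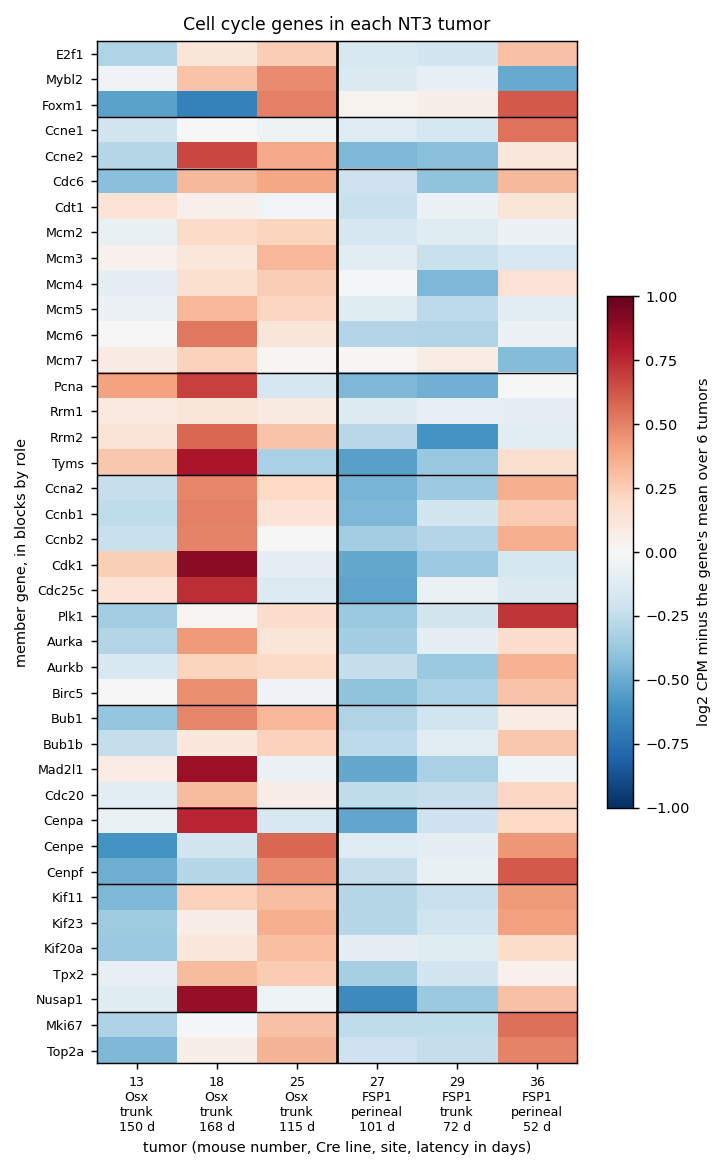
Log2 CPM of each member minus its own mean over the 6 tumors, one row per gene in blocks by role and one column per tumor; red is above and blue below the mean. Tumors 27 and 29 were below the mean for most members, while tumors 18 and 36 were high for different genes: Cdk1, Mad2l1 and Nusap1 in tumor 18, and Plk1, Cenpf and Mki67 in tumor 36.

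The members moved together across tumors, in more than 1 pattern. The mean Pearson correlation of log2 CPM over the 780 pairs of members was 0.52 across the 6 tumors, with 90.3% of pairs above 0, while over pairs of all genes tested it was 0.00. All pairs share the same 6 libraries and their scaling. Scaling centers the tumors over all genes, which holds the mean over all genes near 0 in advance. It is therefore no measure of how far other sets of genes move together, and no such sets were compared. Without tumor 36 the mean was 0.63, and without tumor 18 it was 0.50. Mki67 correlated with Top2a at 0.97 but with Cdk1 at 0.01 and with Pcna at 0.06, whereas Cdk1, the kinase of mitotic entry, correlated with Mad2l1 at 0.98 and with Pcna at 0.95. By this measure 17 of the other members were closer to Mki67 and 21 to Cdk1. Kif23 (r = 0.97), Plk1 (0.97), E2f1 (0.94) and Bub1b (0.93) were nearest to Mki67 after Top2a. Those nearest to Cdk1, beside Mad2l1 and Pcna, were Cdc25c (0.96), Mcm6 (0.94) and Tyms (0.93). Foxm1 correlated with Cdk1 at -0.69 and with Cenpf at 0.91.

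Ratios within a tumor do not depend on scaling between libraries, and are given for pairs of members chosen for their low correlation. Chosen in this way, the pairs could hardly have had ratios that stay equal between tumors. The genes of a pair also differ in length, with 1260 bases for Pcna and 10075 for Mki67, and 2860 for Cdk1 and 4365 for Foxm1. The part of length in these ratios was not tested. The ratio of Pcna to Mki67, in CPM, was 1.60 in tumors 13 and 18 and 0.71 in tumor 25, and in tumors 27, 29 and 36 it was 0.86, 0.84 and 0.67. The ratio was highest in tumors 13 and 18, which had the longest latencies, and tumor 25 of the same line lay among the FSP1-Cre;NT3 tumors. The ratio of Cdk1 to Foxm1 was 6.86 and 12.1 in tumors 13 and 18 and between 2.32 and 3.00 in the other 4. Here too tumor 25 lay apart from its own line.

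Gene length went with these patterns in part. Over the 38 members other than Mki67 and Cdk1, the Spearman correlation between deposited length and the correlation with Mki67 minus that with Cdk1 was 0.43, and the median length was 3669 bases for the 17 closer to Mki67 and 2886 bases for the 21 closer to Cdk1. Mki67 itself has 10075 bases and Cdk1 2860, but Plk1 (2203 bases) and E2f1 (2460 bases) were close to Mki67 and Tyms (3808 bases) to Cdk1. Across the members, the Spearman correlation between length and a tumor's deviation from the gene's mean log2 CPM was -0.51 in tumor 13, -0.48 in tumor 18 and 0.70 in tumor 25. In tumors 27, 29 and 36 it was 0.37, 0.15 and 0.26. Over all genes tested the same measure was -0.43, -0.48 and 0.41 in tumors 13, 18 and 25, so that the dependence on length was not particular to these genes. Long members were thus low in tumors 13 and 18 and high in tumor 25. These correlations are across genes, which are not independent replicates, and they were computed after the values had been seen. The part of length in the results was not tested.

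**Figure D3:**
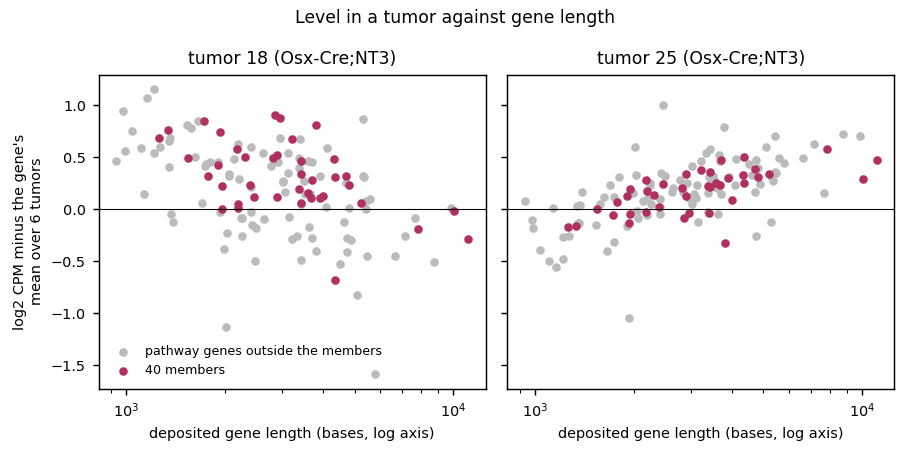
Log2 CPM minus the gene's mean over the 6 tumors against deposited gene length (log axis), in tumors 18 and 25, for the 40 members (dark red) and 93 other cell cycle genes (grey). Short members were high and long ones low in tumor 18 (Spearman -0.48 over members), and the reverse held in tumor 25 (0.70).

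The comparison of lines asks whether tumors begun with the Osx and FSP1 drivers differ in their cell cycle transcripts. Most members had lower means in FSP1-Cre;NT3 tumors, the differences were small, and none passed the test. By edgeR (quasi-likelihood, p-values adjusted after Benjamini and Hochberg), 0 of 40 members and 0 of all 16415 genes tested (0.0%) had an adjusted p under 0.05. At an unadjusted p under 0.05 there were 2 members and 10.8% of all genes. DESeq2 called 420 of 16415 genes and 0 members. Without tumor 25 it called 3650 of 16820 genes and 4 of 40 members (Foxm1, Pcna, Rrm2 and Cdk1), a smaller share of the members than of all genes. The log2 fold change (FSP1-Cre;NT3 relative to Osx-Cre;NT3) was below 0 for 33 of 40 members, against 48.9% of all genes, and its median was -0.21 for the members and 0.01 for all genes. It ranged from -0.76 (Cdk1) to 0.40 (Foxm1). Scaling by library size alone moved the median of all genes from 0.01 to 0.13 and left 27 of 40 members below 0, against 39.6% of all genes, with E2f1, Cdt1, Bub1b, Kif11, Kif23 and Kif20a turning above 0. The fibroblast markers were higher in all 3 FSP1-Cre;NT3 tumors, as given above, and their part in these differences was not tested. Without tumor 36, 39 of 40 members were below 0 (51.4% of all genes) with a median of -0.36, and without tumor 18 the median was -0.11. Between trunk tumors alone, 3 against 1, there were 39 members below 0 (54.9% of all genes) and the median was -0.36, with the lone tumor 29 assumed to vary like the others.

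**Figure D4:**
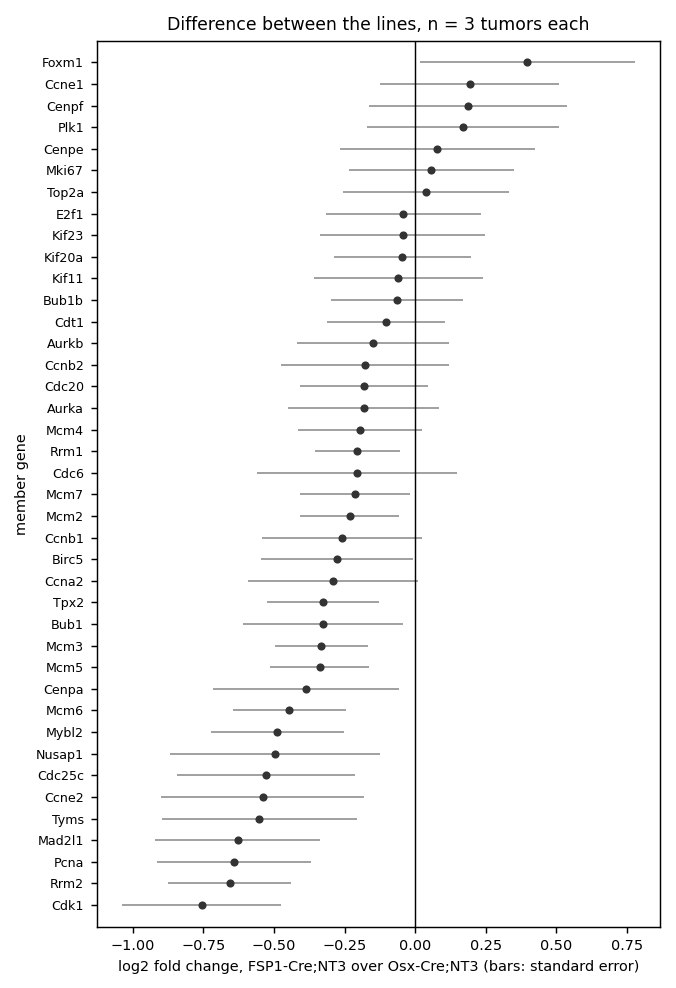
Log2 fold change of each member, positive where FSP1-Cre;NT3 tumors were higher (points), with its standard error (bars) from edgeR, 3 tumors a line. The points run from -0.76 for Cdk1 to 0.40 for Foxm1, 33 of 40 lie left of 0, and no member passed an adjusted p of 0.05.

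There were 7 members lower in every FSP1-Cre;NT3 tumor than in any Osx-Cre;NT3 tumor, and 0 members higher in every one. Of all genes, 7.97% were lower in this sense and 9.03% higher. The 7 were Mybl2, Mcm3, Mcm5, Mcm6, Rrm1, Rrm2 and Cdk1, of which 5 act in replication. Scaled by library size alone there were 4, namely Rrm1, Rrm2, Cdk1 and Mad2l1, and 0 were higher, against 4.4% and 10.9% of all genes under that scaling. Rrm2, the regulated small subunit of ribonucleotide reductase, had 48.9, 66.6 and 54.4 CPM against 36.9, 29.5 and 41.4 CPM. Its log2 fold change was -0.66 ± 0.22 (standard error) with an unadjusted p of 0.0201 and an adjusted p of 0.458. Cdk1, at chr10:69336635-69352912 in mm10, had 72.4, 115 and 57.98 CPM against 43.2, 47.9 and 54.4 CPM. Tumor 18 stood far above the rest, and tumors 25 and 36 lay close together on either side of the gap. The log2 fold change was -0.76 ± 0.28 (standard error) (unadjusted p 0.0324, adjusted p 0.458), and -0.43 without tumor 18. Pcna, at chr2:132249286-132253180, had 189, 230.0 and 127 CPM against 105, 102 and 143 CPM, so that the lines overlapped, tumor 36 lying above tumor 25. Its log2 fold change was -0.64 ± 0.27 (standard error), with an adjusted p of 0.458.

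Among the origin licensing members all 8 log2 fold changes were below 0, from -0.45 (Mcm6) to -0.10 (Cdt1, which turned above 0 with library sizes alone), and none passed the test. Mcm2, a subunit of the helicase, had 44.8, 53.9 and 55.3 CPM against 42.1, 43.5 and 45.5 CPM. Tumors 18 and 25 were higher than the rest, while tumor 13 lay among the FSP1-Cre;NT3 tumors. Mcm5, whose window is shown above, had 63.1, 82.7 and 76.2 CPM against 60.2, 54.8 and 60.6 CPM, and Mcm6 had 93.04, 134 and 101 CPM against 75.98, 75.4 and 89.4 CPM. Both were separated between lines by narrow gaps. Cdc6 had 5.22, 8.70 and 9.10 CPM against 6.02, 5.26 and 8.69 CPM, with tumors 13, 27 and 29 low and the other 3 high whatever the line. Tyms, which makes thymidylate for DNA, had 30.7, 44.7 and 20.4 CPM against 17.5, 19.5 and 28.4 CPM, with tumors 25 and 36 crossing. 

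The regulators did not share a direction. E2f1, an activating E2F, had 9.11, 12.2 and 13.3 CPM against 10.01, 9.80 and 13.8 CPM, with tumors 25 and 36 highest and a log2 fold change of -0.04 ± 0.27 (standard error). Mybl2, a MuvB partner, had 19.5, 24.4 and 27.8 CPM against 18.1, 18.9 and 14.1 CPM and a log2 fold change of -0.49 ± 0.24 (standard error). Tumor 36 was its lowest and tumor 25 its highest. Foxm1, the other partner, at chr6:128362994-128375886, had 10.6, 9.55 and 21.7 CPM against 15.7, 15.96 and 23.4 CPM. Tumors 25 and 36 were its highest and tumors 13 and 18 its lowest, so that the lines overlapped only through tumor 25. Its log2 fold change was 0.40 ± 0.38 (standard error), adjusted p 0.666, and 0.82 without tumor 25. Ccne1, the cyclin that drives S phase entry, had 5.59, 6.35 and 6.14 CPM against 5.80, 5.62 and 9.25 CPM. Tumor 36 stood apart and the other 5 lay within a narrow range. Its relative Ccne2 had 5.13, 9.96 and 8.14 CPM against 4.57, 4.69 and 6.72 CPM, with tumors 18 and 25 highest.

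The mitotic cyclins had lower FSP1-Cre;NT3 means and overlapping tumors. Ccna2, the cyclin of S phase and G2, had 46.1, 75.8 and 62.04 CPM against 39.02, 42.04 and 69.4 CPM, and Ccnb1, the main partner of CDK1, had 29.9, 50.5 and 39.1 CPM against 26.1, 31.3 and 42.4 CPM. For both, tumors 18, 25 and 36 were high and tumors 13, 27 and 29 low, an order that did not follow the line. Ccnb2 had 21.5, 35.4 and 25.1 CPM against 19.8, 20.5 and 32.3 CPM in much the same order. Cdc25c, the phosphatase that activates CDK1, had 11.6, 17.6 and 9.57 CPM against 7.31, 10.1 and 9.50 CPM, highest in tumor 18 and lowest in tumor 27. All 5 members of this group had log2 fold changes below 0, from -0.76 to -0.18, and none passed the test.

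In the comparison of lines the median log2 fold change was -0.17 for the mitotic kinase group and -0.06 for the spindle group. Both lay nearer to 0 than the median of the mitotic cyclin group (-0.29). The 4 checkpoint members did not, with a median of -0.25 and all 4 below 0, or 3 of 4 with library sizes alone. Plk1, a kinase of mitotic entry and exit, had 15.7, 20.1 and 22.4 CPM against 15.3, 17.6 and 32.6 CPM. Tumor 36 was well above the rest, and the log2 fold change was 0.17 ± 0.34 (standard error). Bub1, a checkpoint kinase, had 17.1, 31.3 and 28.2 CPM against 18.1, 19.4 and 23.5 CPM, with tumors 18 and 25 highest. Mad2l1 had 49.03, 84.1 and 44.8 CPM against 32.8, 37.3 and 45.2 CPM and a log2 fold change of -0.63 ± 0.29 (standard error), the most negative of the 4 checkpoint members. Its tumor 25 lay just below tumor 36, and tumor 18 stood far above all. Cenpa, the histone H3 variant of the centromere, had 24.02, 42.6 and 22.5 CPM against 17.6, 21.8 and 28.9 CPM. Its log2 fold change was -0.39, while the other centromere members, Cenpe (0.08) and Cenpf (0.19), lay above 0. The median of the centromere group was 0.08. Kif11, the motor that separates spindle poles, had 32.2, 51.5 and 54.3 CPM against 35.98, 37.6 and 58.97 CPM. Cenpa was highest in tumor 18 and Kif11 in tumor 36. The 4 kinase and passenger members (Plk1, Aurka, Aurkb, Birc5) had log2 fold changes between -0.28 and 0.17, and the 5 spindle and cytokinesis members between -0.50 (Nusap1) and -0.04 (Kif23), of which 3 turned above 0 with library sizes alone.

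Mki67, at chr7:135689788-135716379, had 118, 144 and 179 CPM against 122, 122 and 214 CPM. Top2a, which is read beside it in pathology, had 89.9, 128 and 155 CPM against 106, 104 and 173 CPM. In both, tumors 36 and 25 were highest and the lines overlapped throughout. The line means of Mki67 were 147 ± 30.7 CPM (SD, n = 3) and 153 ± 53.2 CPM (SD, n = 3), and its log2 fold change was 0.06 ± 0.29 (standard error), adjusted p 0.944 by edgeR. That of Top2a was 0.04 ± 0.30 (standard error).

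Of 93 other cell cycle genes on 5 lists, 0 passed an adjusted p of 0.05 between lines. At an unadjusted p under 0.05 there were 5, all with negative log2 fold changes, which is 5.38% against the 10.8% of all genes. Of all genes tested, 48.9% had a log2 fold change below 0, or 39.6% with library sizes alone. The 22 other replication genes had a median log2 fold change of -0.40, with 21 below 0. With library sizes alone the median of these 22 was -0.29, with 19 below 0. Among them Orc2, of the origin recognition complex, had 63.97, 69.8 and 48.97 CPM against 41.5, 41.99 and 39.9 CPM and Gmnn, the inhibitor of licensing, had 34.8, 49.3 and 23.7 CPM against 15.8, 18.7 and 23.1 CPM. The lines did not overlap in either gene. Their log2 fold changes were -0.57 ± 0.19 and -0.90 ± 0.32 (standard errors), both with an adjusted p of 0.458 by edgeR. Uhrf1, which keeps DNA methylation through replication and was the highest on its list (22.6 RPKM), had a log2 fold change of -0.41. The 34 other mitosis genes had a median of -0.20, with 29 below 0, or -0.10 and 25 with library sizes alone. Tacc3, a spindle protein, was at -0.55 and Bub3, of the checkpoint, at -0.36. On the list of 10 G2 and exit regulators, with 8 below 0 and a median of -0.18, Ube2s, the ubiquitin-conjugating enzyme of the anaphase-promoting complex, was at -0.57 and Cdc25b, a CDK-activating phosphatase, at 0.54.

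The list of G1 and RB-E2F family genes, which also holds Lin9 and Lin54 of the MuvB core, showed no common direction. The 20 G1 cyclins, kinases and RB-E2F family genes had a median log2 fold change of 0.01, with 10 above and 10 below 0, or 13 and 7 with library sizes alone. Cdk4, the partner of D-type cyclins, was the highest of them at 171 ± 39.8 RPKM (SD, n = 6). It had 384, 371 and 286 CPM against 248, 279 and 173 CPM, with no overlap between lines, a log2 fold change of -0.57 ± 0.25 (standard error) and an adjusted p of 0.458 by edgeR. E2f5, a repressive E2F, was at -0.42. Of the D-type cyclins, Ccnd1 had 83.2 RPKM and 368, 282 and 645 CPM against 436, 365 and 253 CPM, highest in tumor 25 and lowest in tumor 36. Ccnd2 ran otherwise, at 117, 44.5 and 182 CPM against 150.1, 133 and 303 CPM, lowest in tumor 18 and highest in tumor 36. Ccnd3 was steady, between 49.9 CPM in tumor 18 and 67.97 CPM in tumor 36. 

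The 7 CDK inhibitors spanned 0.881 to 87.00 RPKM. Cdkn1a (p21), a p53 target, had 269.6, 93.6 and 311 CPM against 211, 241 and 188 CPM. Tumor 18, where 21 members were highest, had its lowest value. Cdkn2a, whose locus encodes p16INK4a and p19ARF that a gene count does not separate, had a mean of 76.4 RPKM, with 185, 111 and 102 CPM against 93.5, 121 and 44.4 CPM. Its neighbor Cdkn2b (p15) had 40.2 RPKM. Both were highest in tumor 13 and lowest in tumor 36. Cdkn1b (p27) had 11.1 RPKM, Cdkn2c (p18) 6.88 and Cdkn2d (p19INK4d) 6.14, and Cdkn1c (p57) was lowest at 0.881. The log2 fold changes between lines ran from -0.62 for Cdkn2a to 0.95 for Cdkn1c, 3 of 7 above 0 (4 of 7, with Cdkn1a, under library sizes alone), and none passed the test.

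**Figure D5:**
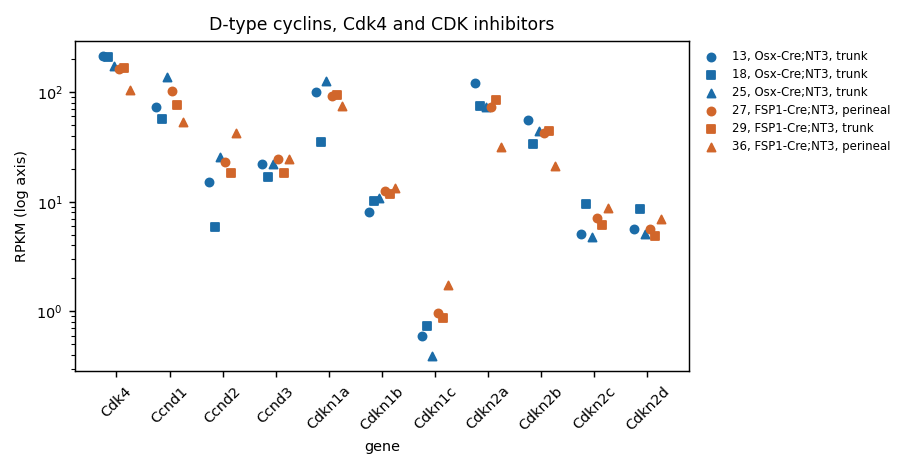
RPKM (log axis) of Cdk4, the 3 D-type cyclins and the 7 CDK inhibitors in each tumor; blue is Osx-Cre;NT3 and orange FSP1-Cre;NT3, and the marker shape names the tumor. Cdk4 was highest (mean 171 RPKM) and Cdkn1c lowest (0.881 RPKM), and tumor 18 was lowest for Ccnd2 and Cdkn1a while tumor 36 was lowest for Cdkn2a and Cdkn2b.

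The comparison of sites set the 2 perineal tumors against the 4 trunk tumors. Of 16971 genes tested, 0 (0.0%) passed an adjusted p of 0.05 by edgeR, as did 0 of 40 members, and at an unadjusted p under 0.05 there were 0 members against 10.5% of all genes. DESeq2 called 603 genes and 0 members, and edgeR called 567 genes without tumor 27 and 2 without tumor 25, with 0 members each time. Without tumor 27 the perineal arm was tumor 36 alone, assumed to vary like the trunk tumors. The log2 fold change of perineal over trunk was above 0 for 16 members, against 48.5% of all genes, with a median of -0.11. The lowest unadjusted p belonged to Mybl2, at -0.50 ± 0.27 (standard error) (adjusted p 0.552), followed by Cdk1 at -0.59 and Cdc25c at -0.54. Foxm1 had the most positive value, 0.43 ± 0.39 (standard error). The counts differed with the tumors that entered. Within FSP1-Cre;NT3, with 2 perineal tumors and 1 trunk tumor, 35 of 40 were above 0 (50.8% of all genes) with a median of 0.24, and without tumor 36 only 1 of 40 was above 0 (47.4% of all genes) with a median of -0.29. The last value sets tumor 27 alone, which was the lowest tumor for 19 members, against the 4 trunk tumors. The perineal tumors themselves, 27 and 36, held the lowest and nearly the highest mitosis sums. Markers of other cells also separated the sites, with neutrophil markers at 160 and 473 CPM in the perineal tumors against 20.9 to 63.9 CPM on the trunk, adipocyte markers at 34.3 and 123 CPM against 2.32 to 12.5 CPM, and endothelial markers at 243 and 316 CPM against 79.0 to 207 CPM. All 4, 4 and 3 markers of these lists were higher in both perineal tumors, and their part in the comparison was not tested.

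For latency, the log2 change per 50 days was fitted over the 6 tumors. By edgeR, 0 of 16415 genes (0.0%) and 0 members passed an adjusted p of 0.05, and DESeq2 called 936 genes and 0 members. At an unadjusted p under 0.05 there were 4 members, against 19.7% of all genes. Cdk1 had a change of 0.46 ± 0.15 (standard error) per 50 days with an adjusted p of 0.215, Pcna 0.37 and Rrm2 0.35, while Foxm1 had -0.49 ± 0.18 (standard error) with an adjusted p of 0.223. Of the 40, 28 were above 0 (46.6% of all genes) with a median of 0.09. All 12 replication members were among these, and Mki67 (-0.18), Top2a (-0.16) and Plk1 (-0.24) were below 0. Without tumor 18, which had both the longest latency and the deepest library, 16 were above 0 (50.2% of all genes) and the median was -0.10. With the line in the model 11 were above 0 (47.9% of all genes), and without tumor 36 there were 37 (48.5% of all genes) with a median of 0.22. Length went with these changes too, with a Spearman correlation across members of -0.41 for latency, 0.35 for line and 0.38 for site, against -0.39, 0.30 and 0.27 over all genes tested. Across the 93 other cell cycle genes it was -0.60, 0.49 and 0.56, in that order. The comparisons share all 6 tumors, and their lists of low p-values are not independent of one another.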

How the data were processed

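RNA was extracted from 6 frozen or RNAlater-stored tumors and sequenced with an Illumina mRNA kit. The authors' methods give alignment to mm10 with HISAT2 and counting per gene with featureCounts, while the submitters' processing notes list TopHat2 2.0.6, HTSeq, bcl2fastq and mm10; the annotation and strandedness are not given in the sources used here. The deposited counts are raw, 1 column a tumor, and every one of them is even, so that a fragment may have been counted more than once. The deposited RPKM values use a length column headed as coding, of which 37.8% are multiples of 3, and library totals of which gene counts make up 77.2% to 81.5%. RPKM served only to compare genes. 

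Counts were tested with edgeR 4.0.16 (TMM, filterByExpr, quasi-likelihood, Benjamini-Hochberg) in R 4.3.3 over all genes that passed the filter, which all 40 members did. Log2 CPM used a prior count of 2. DESeq2 1.42.0, other scalings and filters, halved counts, covariates and single tumors left out were alternatives. The depth of 51824408 to 163297772 counts gives a 3-count floor of 0.0184 to 0.0579 CPM, which covers counting error only. Members, lists, markers and tests were chosen with earlier results of these data known. Genes given in every tumor were the first of each role group, Mki67, Pcna, Mcm2 and Ccnb1, the extremes of level and spread, and in each comparison the 3 lowest p and the largest changes; other members were added after their values were seen. Of each list, the 2 genes with the lowest p between lines, the highest by RPKM, and all CDK inhibitors and D-type cyclins were named. Promoter windows came from RefSeq. Of the marker lists, smooth muscle summed to 225 to 2069 CPM, simple epithelium 566 to 4660, suprabasal keratinocyte 9.25 to 682, T cell 49.5 to 140, B cell 6.87 to 15.9, macrophage 197 to 399, neutrophil 20.9 to 473, adipocyte 2.32 to 123, skeletal muscle 16.9 to 98.8 and erythroid 17.0 to 48.2 CPM over the 6 tumors.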

Additional observations from a re-analysis of the deposited data

Results flagged for a closer look

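In a test for 1 tumor standing apart from the other 5, 41 sets of 6 values were examined (the 40 members and their sum), and 2 stood out, both through tumor 36. Chance flags about 1 in 20, or 2.05 of 41. Ccne1 had its highest log2 CPM in tumor 36, at 3.21, with the next tumor at 2.67. Mcm7 had its lowest log2 CPM in tumor 36, at 6.10, with the next tumor at 6.54.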

How the results depend on the processing

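Between lines, the median log2 change of the members stayed below 0 in all alternatives run, between -0.36 and -0.10, and leaving out 1 tumor at a time gave -0.36 to -0.11. The count of genes called between lines went from 0 to 420 with DESeq2. DESeq2 with 1 tumor left out was an alternative chosen after seeing the data. It called 236 genes without tumor 13, 499 without 18, 3650 without 25, 460 without 27, 731 without 29 and 196 without 36. Without tumor 25 this was 4 of 40 members beside 3650 of 16820 genes, and 0 members were called otherwise. Between sites it went from 0 to 603 with DESeq2, and to between 0 and 567 with 1 tumor left out. The members' site median went from -0.11 to 0.24 with line as covariate and to 0.24 within FSP1-Cre;NT3, and the site change of Cdk1 reversed from -0.59 to 0.0205 and 0.0153, in that order. For latency the count went from 0 to 936 with DESeq2 and to between 0 and 1 with 1 tumor left out, and the members' median lay between -0.12 and 0.22. The cause of these shifts was not tested. No paired analysis was possible because the numbers in the labels are mouse numbers and none is shared between the lines. The biological coefficient of variation over all genes was 0.48 with 3 tumors a line and the lowest member count was 248. Scaling by library size alone turned 6 of the 40 members above 0 between lines.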

Other observations

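E2f2, an activating E2F that is not among the 40 genes and was chosen after its values were seen, had 4.47, 4.64 and 5.18 CPM in Osx-Cre;NT3 and 7.74, 3.80 and 17.8 CPM in FSP1-Cre;NT3 tumors. Tumor 36 was the highest, and its relative E2f1 spanned only 9.11 to 13.8 CPM. The log2 fold change of E2f2 in perineal over trunk tumors was 1.49 ± 0.39 (standard error), with an unadjusted p of 0.00584 and an adjusted p of 0.287 by edgeR. Tumor 36 was also highest for Ccnd2 (303 CPM) and for the summed markers of simple epithelium (4660 CPM, against 566 to 1174 CPM in the other 5 tumors), smooth muscle (2069 CPM, against 225 to 507 CPM), suprabasal keratinocyte (682 CPM, against 9.25 to 343 CPM), neutrophil (473 CPM, against 20.9 to 160 CPM) and adipocyte (123 CPM, against 2.32 to 34.3 CPM). It was lowest for basal keratinocyte markers (5687 CPM, against 9956 to 14247 CPM). The part of those cells in the values of tumor 36 was not tested.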
